A study of Mus musculus with 12 samples.

Results

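The 7 neutrophil granule and marker genes S100a8, S100a9, Csf3r, Retnlg, Lcn2, Ngp and Camp were described in RNA sequencing libraries of sorted alveolar type II (ATII) cells of the mouse lung. They were taken by symbol, as 7 of the 23238 gene symbols listed in the deposited files, by a rule that uses no measured value, although they were proposed with earlier results of these data known. All 7 were counted in some library and all 7 passed the filter on low counts. For S100a8, S100a9, Csf3r, Retnlg and Ngp the highest levels were found in 1 bleomycin library (BLM 1) and 1 control library (Con 3), and the spread within groups exceeded most differences between group means.

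Neutrophils are short-lived phagocytes made in the bone marrow, and they enter the lung early after injury. During maturation they fill their granules in order, with enzymes such as Mpo and Elane in the primary granules and antimicrobial proteins such as Ltf, Ngp, Camp and Lcn2 in the secondary granules, and the mRNA of the granule proteins declines in mature cells. S100a8 and S100a9 encode the subunits of calprotectin, a calcium- and zinc-binding protein that fills the neutrophil cytosol. Csf3r encodes the receptor for granulocyte colony-stimulating factor, Retnlg a secreted resistin-like protein of neutrophils, Ngp a granule protein of the cystatin fold, Camp the antimicrobial cathelicidin, and Lcn2 a lipocalin that binds bacterial siderophores. Lcn2 is made by injured epithelium as well, and S100a8 and S100a9 by monocytes.

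The study asked how deletion of the acetyltransferase p300 (Ep300) in ATII cells alters their response to bleomycin, a DNA-breaking drug that injures the alveolar epithelium. There were 4 groups of 3 mice with 1 library per mouse. Con and BLM were given PBS or bleomycin at 4 mg/kg into the trachea and served as the controls of genotype, and KO and KOBLM were Spc-p300 d/d mice given PBS or the same dose of bleomycin. In the d/d mice, LoxP sites around exon 9 of p300 were recombined by Spc-CreERT2, a tamoxifen-induced Cre driven by the surfactant protein C promoter that marks ATII cells. Tamoxifen at 10 mg/kg, given at 8 weeks of age, is listed for all 4 groups. A supplementary legend of the study names either vehicle or tamoxifen for the Spc-p300 f/f mice that gave ATII cells. Whether Con and BLM received tamoxifen could therefore not be settled here. The control genotype is called wild type in the sample titles and Spc-p300 f/f in the study, and which of them applies could not be settled here. The cells were sorted as CD74+ and EpCAM+ cells, and no step that removes leukocytes by CD45 is stated.

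The libraries held 7005005 to 11153154 counts, where a detection floor of 3 counts corresponded to 0.269 to 0.428 CPM, a unit that gives the count of a gene as a share of all counts of its library scaled by 1e+06. Intervals and floors cover counting error only, since the reads carry no molecular identifiers. BLM 3 stood apart, with 6847 genes detected against 8790 to 13838 in the others. It held 2228 counts of the pluripotency gene Nanog against at most 20 elsewhere, and the alveolar macrophage marker Marco was at 0 there. The sort marker Epcam ran from 2.75 CPM in KO 2 to 329 CPM in BLM 3, with 9.56 CPM in BLM 1 and 35.7 CPM in BLM 2. The sort marker Cd74 was lower in BLM 3 (723 CPM) than in BLM 1 (1209 CPM) and BLM 2 (2247 CPM). The 12 ATII markers summed to 184 to 2193 CPM per library and the 12 alveolar macrophage markers to 1184 to 43280 CPM, so that in each library the macrophage sum was the higher, and Sftpc, the defining surfactant gene, ranged from 0.554 to 612 CPM. The labelled cell type was therefore carried by low marker levels, and transcripts of alveolar macrophages were present in all 12 libraries. Ep300 was counted at 51.0 to 143 CPM in Con and 103 to 154 CPM in KO, which does not check the deletion, because the kit reads the 3′ end of transcripts and the deleted exon lies upstream.

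The promoters of the members were examined because p300 is a co-activator of C/EBP factors, and these factors drive granule genes during neutrophil maturation. The windows of the RefSeq start sites (GRCm38.p6, 250 bases before to 50 after) were searched on both strands for the letters TTNNGCAA (C/EBP type) and AGGAAGT (PU.1 type) and for an NF-kB-type motif. The C/EBP letters stood in 4 of the 7 windows (S100a9, Lcn2, Ngp and Retnlg) and in 10.8% of all 32851 windows of this length. The PU.1 letters stood in S100a8 alone, against 9.35% of all windows, and the NF-kB motif in none of the 7, against 1.63%. A match is a description of letters and not a measured site. The windows of the calprotectin pair, of Lcn2 and of Ngp are shown, since the pair holds most of the counts and Ngp holds 2 C/EBP matches. Lcn2 was added as the member that passed a test of bleomycin in edgeR before adjustment but not after it, as given below. Capitals mark the matches, C/EBP in S100a9, Lcn2 and Ngp and PU.1 in S100a8, each sequence 5′ to 3′ on the strand of its gene.
S100a8 (chr3:90668821-90669120, plus strand): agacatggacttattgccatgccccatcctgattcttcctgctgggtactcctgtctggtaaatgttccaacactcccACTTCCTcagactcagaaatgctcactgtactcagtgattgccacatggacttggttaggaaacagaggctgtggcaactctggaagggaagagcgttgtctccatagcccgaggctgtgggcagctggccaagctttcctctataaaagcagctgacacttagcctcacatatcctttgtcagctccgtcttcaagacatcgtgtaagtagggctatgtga
S100a9 (chr3:90695672-90695971, minus strand): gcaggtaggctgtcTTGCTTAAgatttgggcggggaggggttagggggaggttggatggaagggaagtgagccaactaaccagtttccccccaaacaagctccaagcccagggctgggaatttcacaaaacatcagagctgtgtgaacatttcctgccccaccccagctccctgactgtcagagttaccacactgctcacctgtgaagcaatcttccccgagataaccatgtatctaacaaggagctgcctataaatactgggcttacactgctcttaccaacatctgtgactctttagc
Lcn2 (chr2:32387690-32387989, minus strand): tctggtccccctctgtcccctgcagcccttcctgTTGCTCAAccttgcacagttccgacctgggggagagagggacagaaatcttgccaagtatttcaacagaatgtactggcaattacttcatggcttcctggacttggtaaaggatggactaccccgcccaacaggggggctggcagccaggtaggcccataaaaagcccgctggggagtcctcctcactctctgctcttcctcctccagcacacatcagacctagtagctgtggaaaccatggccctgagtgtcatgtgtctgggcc
Ngp (chr9:110419558-110419857, plus strand): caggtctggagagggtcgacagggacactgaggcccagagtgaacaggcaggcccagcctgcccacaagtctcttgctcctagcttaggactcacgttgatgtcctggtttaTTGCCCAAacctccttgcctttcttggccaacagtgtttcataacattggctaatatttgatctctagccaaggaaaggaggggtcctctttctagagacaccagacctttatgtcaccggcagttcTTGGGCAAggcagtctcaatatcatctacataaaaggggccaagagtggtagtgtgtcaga
No match overlapped another in these windows. In the GENCODE M21 annotation, S100a8 (chr3:90668978-90670035) and S100a9 (chr3:90692632-90695721) lie on opposite strands with 22596 bases between them, and Camp (chr9:109847379-109849617) and Ngp (chr9:110419747-110423012) lie 570129 bases apart.

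Summed over the 7 members, Con 1, Con 2 and Con 3 held 102, 263 and 3749 CPM, and BLM 1, BLM 2 and BLM 3 held 5920.2, 1976 and 140.4 CPM. KO 1, KO 2 and KO 3 held 381, 778 and 365 CPM, and KOBLM 1, KOBLM 2 and KOBLM 3 held 2158, 1501 and 1268 CPM. Con 3 and BLM 3 thus lay on the far side of their groups, with Con 3 above BLM 2 and BLM 3 below Con 2. In bulk libraries, fewer cells of a type and less RNA per cell cannot be told apart, which holds for each value below.

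**Figure D1:**
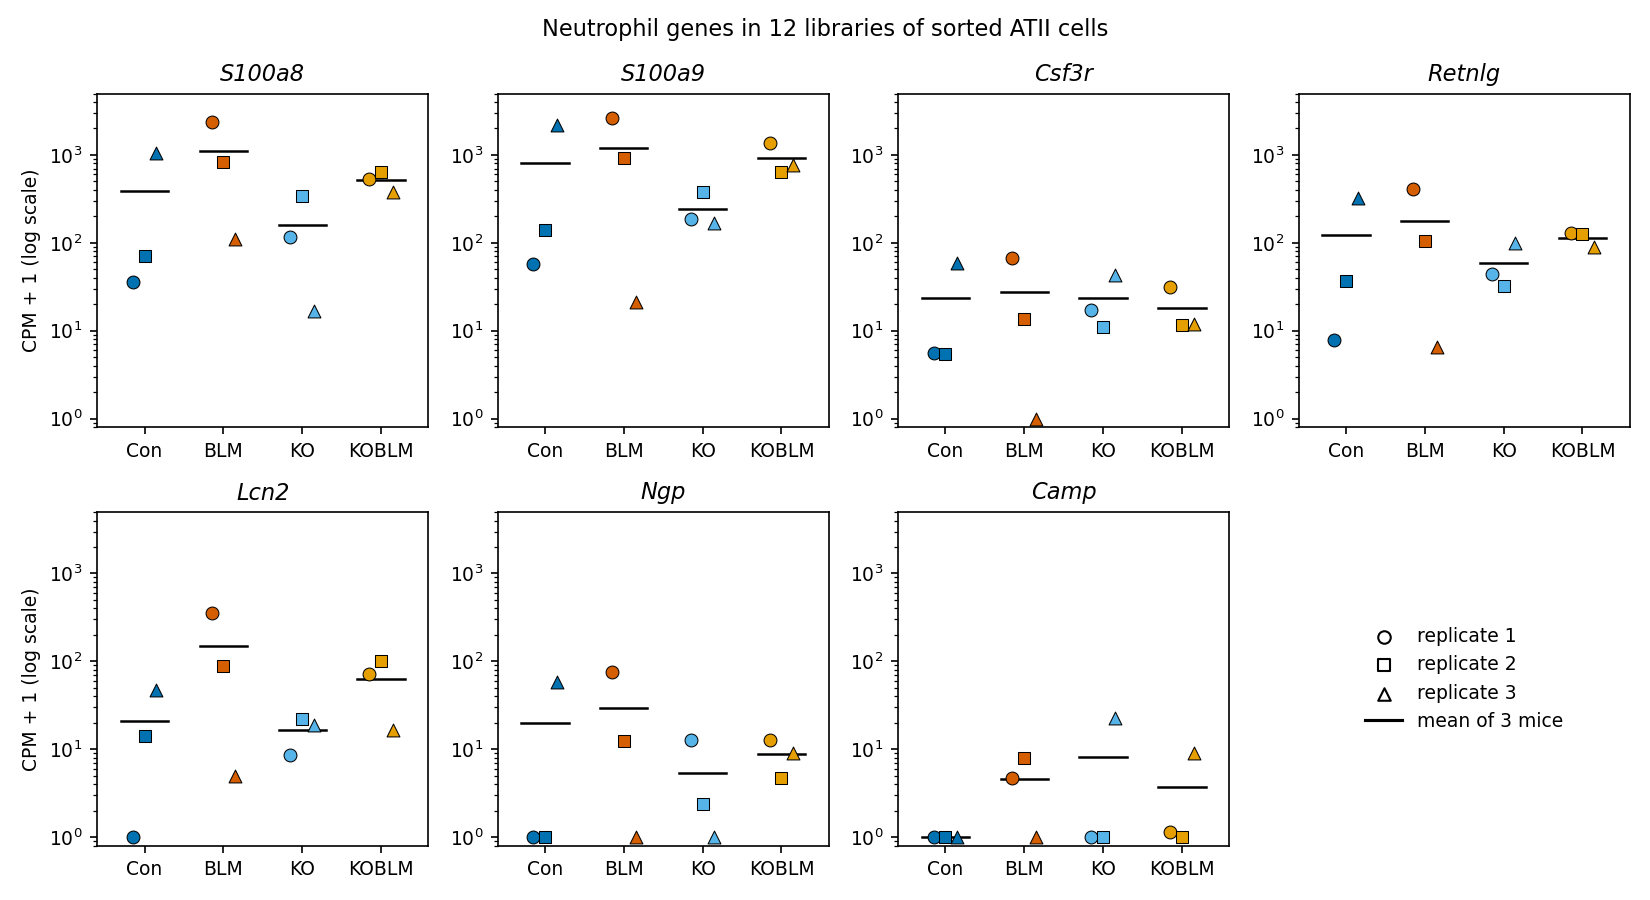
CPM + 1 on a log axis for the 7 members in Con, BLM, KO and KOBLM, with 1 point per library, the replicate number as the shape and the group mean of 3 mice as a line. Con 3 and BLM 1 are the 2 highest libraries for S100a8, S100a9, Csf3r, Retnlg and Ngp, and BLM 3 is the lowest for S100a9, Csf3r and Retnlg.

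The calprotectin pair made up most of the signal, with 50.6% to 93.3% of the summed CPM of the members. S100a8 was counted at 34.9, 69.6 and 1053 CPM in Con 1, Con 2 and Con 3 and at 2370.4, 833 and 111 CPM in BLM 1, BLM 2 and BLM 3. In KO it was counted at 117, 339 and 15.8 CPM and in KOBLM at 533, 632 and 377 CPM. Con, BLM and KO each spanned over an order of magnitude, whereas the KOBLM libraries lay close together and all above KO. The group means were 386 ± 578 CPM in Con, 1105 ± 1154 in BLM, 157 ± 165 in KO and 514 ± 128 in KOBLM (SD, n = 3).

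S100a9 was counted at 56, 139.9 and 2208 CPM in Con and at 2641, 920.4 and 20.4 CPM in BLM. In KO the values were 185, 376 and 169 CPM, and in KOBLM 1384, 631 and 761 CPM. As for S100a8, Con and BLM overlapped throughout and all 3 KOBLM libraries lay above all 3 KO libraries. The means were 801 ± 1219 CPM in Con, 1194 ± 1332 in BLM, 243 ± 115 in KO and 925 ± 403 in KOBLM (SD, n = 3). In the order of the means, Con, BLM and KOBLM were not separated beyond their spread for either gene.

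The ratio of S100a8 to S100a9 counts ran from 0.385 to 1.0 in 10 of the 12 libraries, with KOBLM 1 and KOBLM 2 at its ends. BLM 3 had a ratio of 5.41, from 1233 counts of S100a8 and 228 of S100a9. KO 3 had a ratio of 0.0935, from 171 and 1829 counts. These 2 libraries were far outside the range of the others, and BLM 3 is the library with few genes and Nanog counts. KO 3 carried the highest sum of alveolar macrophage markers, 43280 CPM. The part of other cells in these ratios was not tested.

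**Figure D2:**
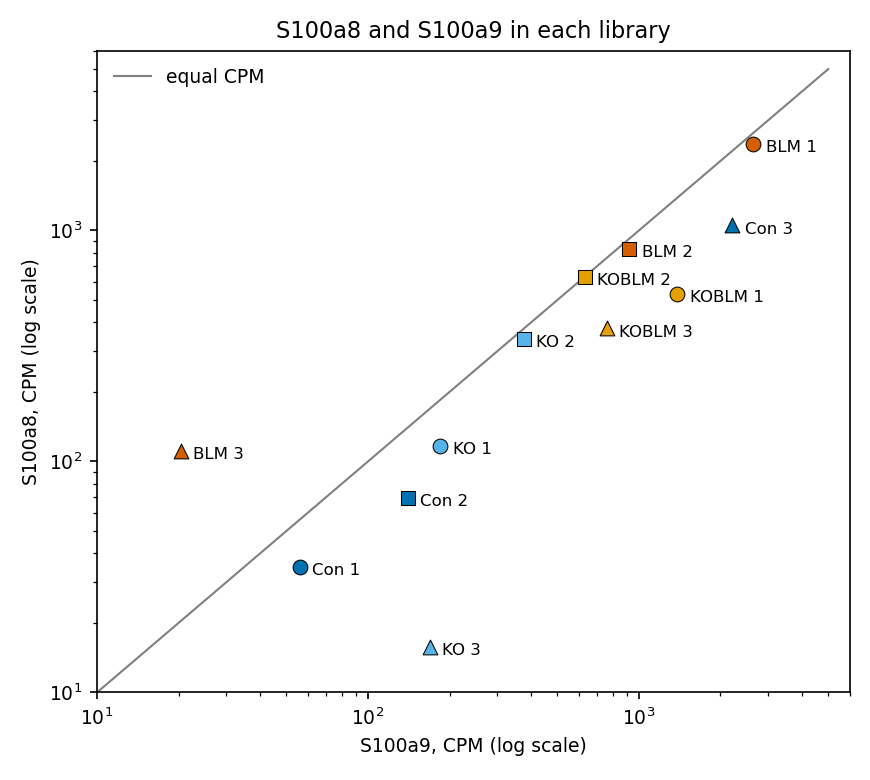
S100a8 CPM against S100a9 CPM in the 12 libraries, both on log axes, with the line of equal CPM. BLM 3 lies above the line, at a count ratio of 5.41, and KO 3 lies far below it, at 0.0935, while the other 10 libraries have ratios of 0.385 to 1.0.

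Csf3r, the receptor that carries the main growth signal of the lineage, was counted at 4.55, 4.49 and 58.6 CPM in Con and at 66.8, 12.5 and 0 CPM in BLM. In KO it was counted at 16.3, 9.89 and 41.8 CPM and in KOBLM at 30.4, 10.7 and 10.8 CPM. The groups overlapped in every comparison, and the means were 22.6, 26.4, 22.7 and 17.3 CPM in Con, BLM, KO and KOBLM. The 0 in BLM 3 allows up to 0.269 CPM by the floor of 3 counts.

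Retnlg, the resistin-like protein, was counted at 6.95, 36.1 and 324 CPM in Con and at 413, 105 and 5.47 CPM in BLM. The KO libraries held 43.6, 31.2 and 98.6 CPM and the KOBLM libraries 127, 124 and 87.7 CPM. KOBLM lay above KO 1 and KO 2 but overlapped with KO 3. Per 100 counts of S100a9, the libraries other than BLM 3 and KO 3 held 8.3 to 25.8 counts of Retnlg, and KO 3 held 58.3.

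Lcn2, the siderophore-binding lipocalin, was counted at 0, 13 and 46.7 CPM in Con and at 351, 86.4 and 3.95 CPM in BLM. In KO the values were 7.7, 20.9 and 18.1 CPM and in KOBLM 71.5, 99.8 and 15.5 CPM. In each bleomycin group 2 of the 3 libraries exceeded all 6 PBS libraries, and BLM 3 and KOBLM 3 did not. The means were 19.9 ± 24.1 CPM in Con, 147 ± 181 in BLM, 15.6 ± 6.95 in KO and 62.3 ± 42.9 in KOBLM (SD, n = 3). The 9 genes listed for injured epithelium and the acute phase, which leave out Lcn2, had sums of 111 to 353 CPM without bleomycin in Con and 298 to 2079 CPM in BLM, and of 118 to 436 CPM in the KO libraries and 326 to 1003 CPM in the KOBLM libraries. The sum did not follow Lcn2 within KOBLM, where KOBLM 2 had the highest Lcn2 and the lowest sum. It is no measure of epithelium alone, since Hp is also in the wider neutrophil list below and Lrg1 is among the genes closest to S100a9 and Retnlg. In BLM 1, Saa3 (717 CPM), Lrg1 (530 CPM) and Hp (308 CPM) stood far above the keratin Krt8 (9.99 CPM). Krt8 was highest in BLM 3 (96.3 CPM), where Lcn2 was lowest in its group. Saa3, an acute phase gene, was counted at 0 to 9.61 CPM in Con and 13.1 to 717 CPM in BLM, and at 0 to 35.4 CPM in KO and 7.03 to 119 CPM in KOBLM. The part of epithelium in the Lcn2 counts was not tested.

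The secondary granule genes Ngp and Camp were sparse. Ngp was counted at 0, 0 and 57.4 CPM in Con, at 74.2, 11.3 and 0 CPM in BLM, at 11.9, 1.37 and 0 CPM in KO and at 11.8, 3.76 and 7.98 CPM in KOBLM. KOBLM was the only group with Ngp over the floor in all 3 libraries. Camp was at 0 in all 3 Con libraries and over the floor in 4 of the 12 libraries, with 3.71 CPM in BLM 1, 6.99 in BLM 2, 21.8 in KO 3 and 7.98 in KOBLM 3. The KO 3 value came from 236 counts (95% Wilson interval 19.2 to 24.8 CPM), in a library without a count of Ngp. Against the floor of 3 counts in each Con library, the BLM mean of Camp was at least 10.7-fold higher and the KO mean, from 1 library, at least 21.7-fold higher.

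The effect of bleomycin was first taken over both genotypes, as the mean of the 2 contrasts in edgeR's quasi-likelihood fit of the 4 groups. The threshold of the study was used for calls, which needs more than 1.5-fold between groups together with a p under 0.05 before adjustment. By this rule 1 of the 7 members was called, where 4.47% of the 13054 genes tested were called (2.72% as higher). By DESeq2 2 were called, Lcn2 and Camp, beside 6.43% of all genes, and Camp alone passed an adjusted p under 0.05 there. Lcn2 was higher by a log2 fold change of 2.47 (SE 1.13) and passed this rule, with an adjusted p = 1.0 in edgeR by Benjamini-Hochberg. Its means were 105 CPM over the 6 bleomycin libraries and 17.7 CPM over the 6 PBS libraries (exact permutation p = 0.06 within genotypes, where the smallest possible is 0.005, two-sided), and 4 of 6 bleomycin libraries exceeded all PBS libraries. The call was lost in 7 of the 12 fits that left out 1 library (BLM 1, Con 2, KO 1, KO 2, KO 3, KOBLM 1 or KOBLM 2) and when replicate numbers entered the model as a block (log2 fold change 2.28, SE 1.62).

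The other 6 members had positive fitted log2 fold changes in the same contrast but were not called. S100a8 had 1.61 (SE 0.90, exact permutation p = 0.13), with all 6 bleomycin libraries above the PBS median of 93.4 CPM. S100a9 had 1.30 (SE 0.91, exact permutation p = 0.31), with 5 of 6 above the PBS median of 177 CPM. Retnlg had 0.84, Ngp 0.77 and Csf3r 0.03. The 3.50 of Camp averages a value set against Con at 0 and is no measure of size. The mean CPM over the 6 bleomycin libraries was below that of the 6 PBS libraries for Camp (3.14 against 3.64) and Csf3r (21.9 against 22.6). The median of the 7 was 1.30, beside 0.03 over all genes tested. Con 3 and BLM 3 weighed on these values, since without Con 3 the fit called 5 members (Lcn2, Ngp, Retnlg, S100a8 and S100a9), beside 4.11% of all genes in that fit, and without BLM 3 it called 3 (Lcn2, S100a8 and S100a9), beside 7.16%. No member was called without BLM 1, Con 2, KO 1, KOBLM 1 or KOBLM 2.

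In BLM against Con alone, 0 of the 7 members were called in edgeR, beside 4.27% of all genes tested, and 0 had an unadjusted p under 0.05. DESeq2 called 2, Camp and Lcn2, beside 7.25% of all genes, and of these 2 Camp passed an adjusted p under 0.05. The log2 fold changes of all 7 were positive, with 1.66 for S100a8 (SE 1.27), 0.73 for S100a9 (SE 1.27), 0.37 for Csf3r (SE 1.76), 0.65 for Retnlg (SE 1.23), 3.01 for Lcn2 (SE 1.64) and 0.72 for Ngp (SE 2.64), and the groups overlapped for all 7 (5.32% of all genes lay higher in BLM with no overlap). The fitted value of Camp, 8.14 (SE 4.16), is set against a group at 0 and is no measure of size. Without Con 3, the log2 fold changes rose to 4.46 for S100a8, 3.67 for S100a9, 3.06 for Retnlg and 4.52 for Lcn2, and the fit called these and Ngp, which is at 0 in Con 1 and Con 2 (5 of 7, beside 2.53% of all genes in that fit). Without BLM 1 they were 0.49, -0.53, -0.93 and 1.39 in the same order. Without BLM 3 the fit called Lcn2 alone, at 3.58 (SE 1.35).

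**Figure D3:**
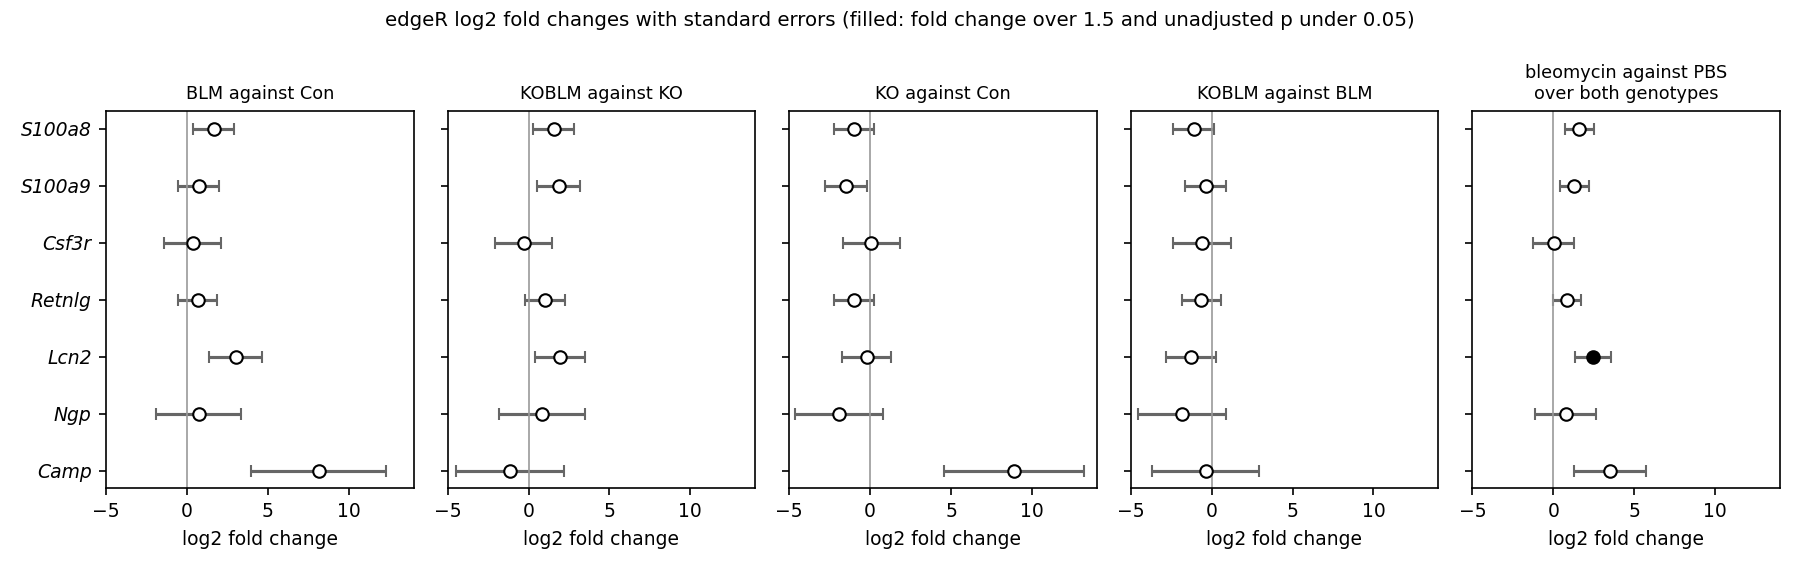
edgeR log2 fold changes of the 7 members with standard errors in 5 comparisons, filled where the study's threshold was passed. Lcn2 for bleomycin over both genotypes, at 2.47, is the filled point, and the values of Camp against Con rest on a group at 0.

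In KOBLM against KO, the effect of bleomycin in the mice with deleted p300, 0 of the 7 members were called in edgeR, beside 1.69% of all genes. There 0 had an unadjusted p under 0.05, and 0 were called in DESeq2, beside 3.52% of all genes. S100a8 was 3.27-fold higher in KOBLM by the ratio of means (log2 fold change 1.55, SE 1.27, adjusted p = 1.0 in edgeR) and S100a9 3.81-fold higher (1.86, SE 1.31, adjusted p = 1.0). For these 2 members the groups did not overlap, as for 3.95% of all genes tested in this direction, and the exact permutation p of 0.1 is the smallest that 3 against 3 mice can give. The log2 fold changes kept their sign with each library left out, at 1.01 to 2.94 for S100a8 and 1.45 to 2.45 for S100a9. S100a9 passed the rule when only KO and KOBLM were fitted (1.86, SE 0.53), a fit with its own estimate of the spread. Lcn2 had 1.94, Retnlg 1.03 and Ngp 0.81, while Csf3r and Camp had -0.30 and -1.15.

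Whether bleomycin acted differently in the 2 genotypes was tested by an interaction term, for which 0 of the 7 members were called in edgeR (2.82% of all genes). DESeq2 called Camp alone, beside 4.79% of all genes, and Camp passed an adjusted p under 0.05 there. That term rests on Con at 0 and on KO 3 as the only KO library with counts of Camp. The interaction terms of the members ran from -9.28 for Camp to 1.14 for S100a9 (SE 1.79). For S100a8 it was -0.11 (SE 1.75), and standard errors of this size leave room for large differences between the genotypes in either direction.

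The genotypes were compared without and with bleomycin, by contrasts that share their libraries with those above. In KO against Con, 0 of the 7 members were called in edgeR (1.44% of all genes) and 0 had an unadjusted p under 0.05. Camp alone was called in DESeq2, beside 2.87% of all genes, and passed an adjusted p under 0.05 there. That call rests on 1 library, KO 3 with 236 counts, since KO 1, KO 2 and all 3 Con libraries were at 0. Its edgeR value of 8.91 (SE 4.32) is no measure of size. The log2 fold changes were -1.0 for S100a8, -1.50 for S100a9, -1.01 for Retnlg, -0.20 for Lcn2 and -1.93 for Ngp, and 0.07 for Csf3r. Without Con 3, S100a8, S100a9, Retnlg, Lcn2 and Ngp turned to 1.80, 1.44, 1.40, 1.31 and 8.39, with Ngp at 0 in the remaining Con libraries. In KOBLM against BLM, 0 of the 7 members were called in edgeR (3.16% of all genes), 0 had an unadjusted p under 0.05 and 0 were called in DESeq2 (5.78% of all genes). All 7 log2 fold changes were negative, from -0.37 for S100a9 to -1.84 for Ngp. Without BLM 1, 6 of them turned positive (0.06 for S100a8, 0.89 for S100a9, 0.95 for Retnlg, 1.37 for Csf3r, 0.35 for Lcn2 and 0.39 for Ngp).

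**Figure D4:**
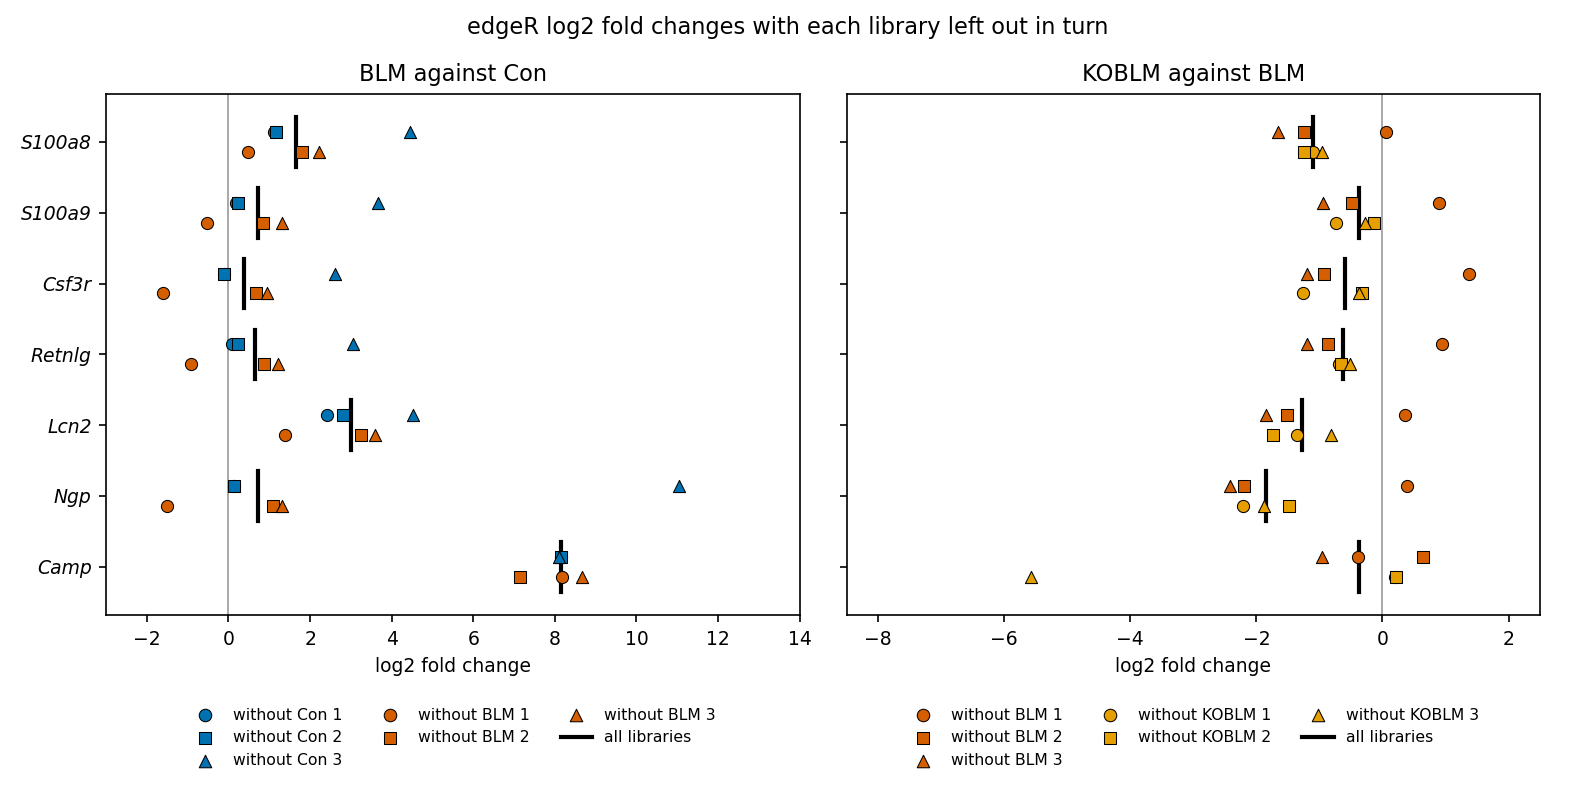
edgeR log2 fold changes of the 7 members for BLM against Con and KOBLM against BLM, with all libraries (black line) and with each library of the 2 groups left out in turn (points). Leaving out Con 3 moves S100a8 from 1.66 to 4.46 on the left, and leaving out BLM 1 moves S100a9 from -0.37 to 0.89 on the right.

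The spread within groups was wide for these genes. On the log2(CPM + 1) scale the SD within groups was 2.04 for S100a8, 2.33 for S100a9, 1.94 for Csf3r, 2.08 for Retnlg, 2.26 for Lcn2, 2.52 for Ngp and 1.76 for Camp. Ngp stood at percentile 98.1 of all genes tested by this measure, S100a9 at 95.6 and Camp, which is mostly at 0, at 68.6.

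Retnlg, Ngp, Lcn2, S100a8 and Csf3r varied together with S100a9 from library to library on the log2(CPM + 1) scale, and Camp was not seen to. Over the 12 libraries, Pearson's r with S100a9 was 0.93 for Retnlg (permutation p = 2e-05), 0.86 for Ngp (p = 0.00046), 0.85 for Lcn2 (p = 0.00047), 0.82 for S100a8 (p = 0.00144) and 0.81 for Csf3r (p = 0.00118, permutation tests). Spearman's rho was 0.90, 0.88, 0.83, 0.90 and 0.78 in the same order, with permutation p of 0.00019, 0.00033, 0.00141, 0.00018 and 0.00456, and the largest of these after Benjamini-Hochberg adjustment over 6 relations was 0.00547. Camp had an r of 0.22 (permutation p = 0.487) and a rho of 0.37 (permutation p = 0.244). Without Con 1 and BLM 3, the libraries farthest from the median of S100a9, r was 0.84, 0.85, 0.79, 0.90 and 0.59 for Retnlg, Ngp, Lcn2, S100a8 and Csf3r and -0.01 for Camp. The 12 libraries pool all groups, and the permutations did not keep the groups apart, so that differences between groups enter these relations. The part of cell content in the relations was not tested.

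A set of 10411 genes was compared with each member over the 12 libraries by Pearson's r. The members themselves were left out of the ranking, and the most similar of the other genes were taken. S100a9 and Retnlg were closer to each other (0.93) than to any gene named here. S100a8 was closest to Cxcr2 (0.97), the chemokine receptor that draws neutrophils to CXC ligands, and then to Slfn4 (0.93) and Ptpn22 (0.91). Cxcr2 was as low as 0.555 CPM in KO 3, where S100a8 was lowest too, and as high as 204 CPM in BLM 1. S100a9 was closest to Sorl1 (0.92), Lrg1 (0.91) and Slfn4 (0.91), and Retnlg to Lrg1 (0.90), Smox (0.90) and Sorl1 (0.87). Lcn2 was closest to Igfbp4 (0.92), Il1b (0.91) and Il1r2 (0.88), Ngp to Ms4a4c (0.90), Col5a2 and Pram1 (0.87 each), and Csf3r to Fam188a (0.92), P2ry12 and Luc7l2 (0.89 each). Camp was closest to Stard10 (0.94), Slc2a6 (0.93) and Spink2 (0.90), all of which were highest in KO 3.

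A wider list of 46 neutrophil genes was examined beside the members, of which 45 are listed in the files, 43 were over the floor in some library and 32 passed the filter. Ly6g, the antigen used to sort mouse neutrophils, is not listed. Of the 5 primary granule genes, none passed the filter. Mpo was over the floor in 1 library (17 counts in Con 2), Elane in 1 (64 counts in Con 3) and Ctsg in none. Of 10 secondary and tertiary granule genes 8 passed, among them Ltf at up to 17.1 CPM and the collagenase Mmp8 at up to 128 CPM. Cebpe, the factor of the secondary granule programme, was over the floor in BLM 1 alone, at 2.14 CPM. The highest means were those of Fpr2, Wfdc21, Il1b, Fpr1 and Slpi, from 591 down to 296 CPM, genes that macrophages also use. Fpr2, a formyl peptide receptor, was highest in KO 3 (1919 CPM), where the alveolar macrophage sum was highest.

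In BLM against Con, 3 of the 32 tested genes of the wider list were called in edgeR, beside 4.27% of all genes. Il1b, a cytokine of neutrophils and macrophages, was counted at 42.8, 67.3 and 223 CPM in Con and at 1557, 441 and 53.8 CPM in BLM, higher by 2.74 on the log2 scale (SE 0.98, adjusted p = 0.995 in edgeR). Il1r2, the decoy receptor of interleukin 1, was counted at 3.34, 7.81 and 47.1 CPM in Con and at 362, 152 and 19.8 CPM in BLM, higher by 3.33 (SE 1.22, adjusted p = 0.995 in edgeR). Slpi, a protease inhibitor made by epithelium too, was lower by a log2 fold change of -2.70 (SE 1.16, adjusted p = 0.995 in edgeR), with 415 to 629 CPM in Con and 1.17 to 118 CPM in BLM. The median of the 32 genes was 0.90, beside -0.08 over all genes. Without BLM 3 the filter let 37 genes of the list pass. Of these 14 were called, 11 higher and 3 lower (Fpr1, Fpr2 and Slpi), beside 5.45% of all genes in that fit. Among the higher, BC100530, Stfa1 and Stfa3 failed the filter with all libraries and were at 0 in Con. They passed it there through BLM 1 and BLM 2, where they are high, so that the direction of their calls was not open.

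Over both genotypes, bleomycin gave 2 calls among the 32 tested genes of the wider list (6.25%, beside 4.47% of all genes). They were Il1b (2.24, SE 0.68) and Il1r2 (2.19, SE 0.83), both at an adjusted p = 1.0 in edgeR. The median of the list was 1.45, beside 0.03 over all genes. Without BLM 3 there were 13 calls among 37 tested genes (7.16% of all genes in that fit), and without Con 3 there were 8 among 37 (4.11%). Both sets of calls held BC100530 and Stfa1, which failed the filter with all libraries and were at 0 in Con and KO. Without BLM 1 there was 1 call among 32 (4.08%). In KOBLM against KO no gene of the list was called in edgeR, beside 1.69% of all genes, and with an unadjusted p under 0.05 there were none. The median of the 32 values was 0.95, beside 0.08 over all genes. Of the 32, 28 were positive, and the share of positive values over all genes was not counted. In KOBLM against BLM, Slpi alone was called (2.51, SE 1.15), beside 3.16% of all genes. It was also the 1 call of the interaction (3.77, SE 1.59), beside 2.82%. In KO against Con none was called, beside 1.44% of all genes. The 12 monocyte and interstitial macrophage markers summed to 820.4 to 1002 CPM in Con, and were higher in BLM 1 (5868 CPM) and BLM 2 (5006 CPM) but not in BLM 3 (723 CPM). Their sums in the KO libraries were 898, 2979.8 and 1031 CPM, which overlapped with the 1292 to 3383 CPM of the KOBLM libraries. Their part in the Il1b and S100 values was not tested.

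**Figure D5:**
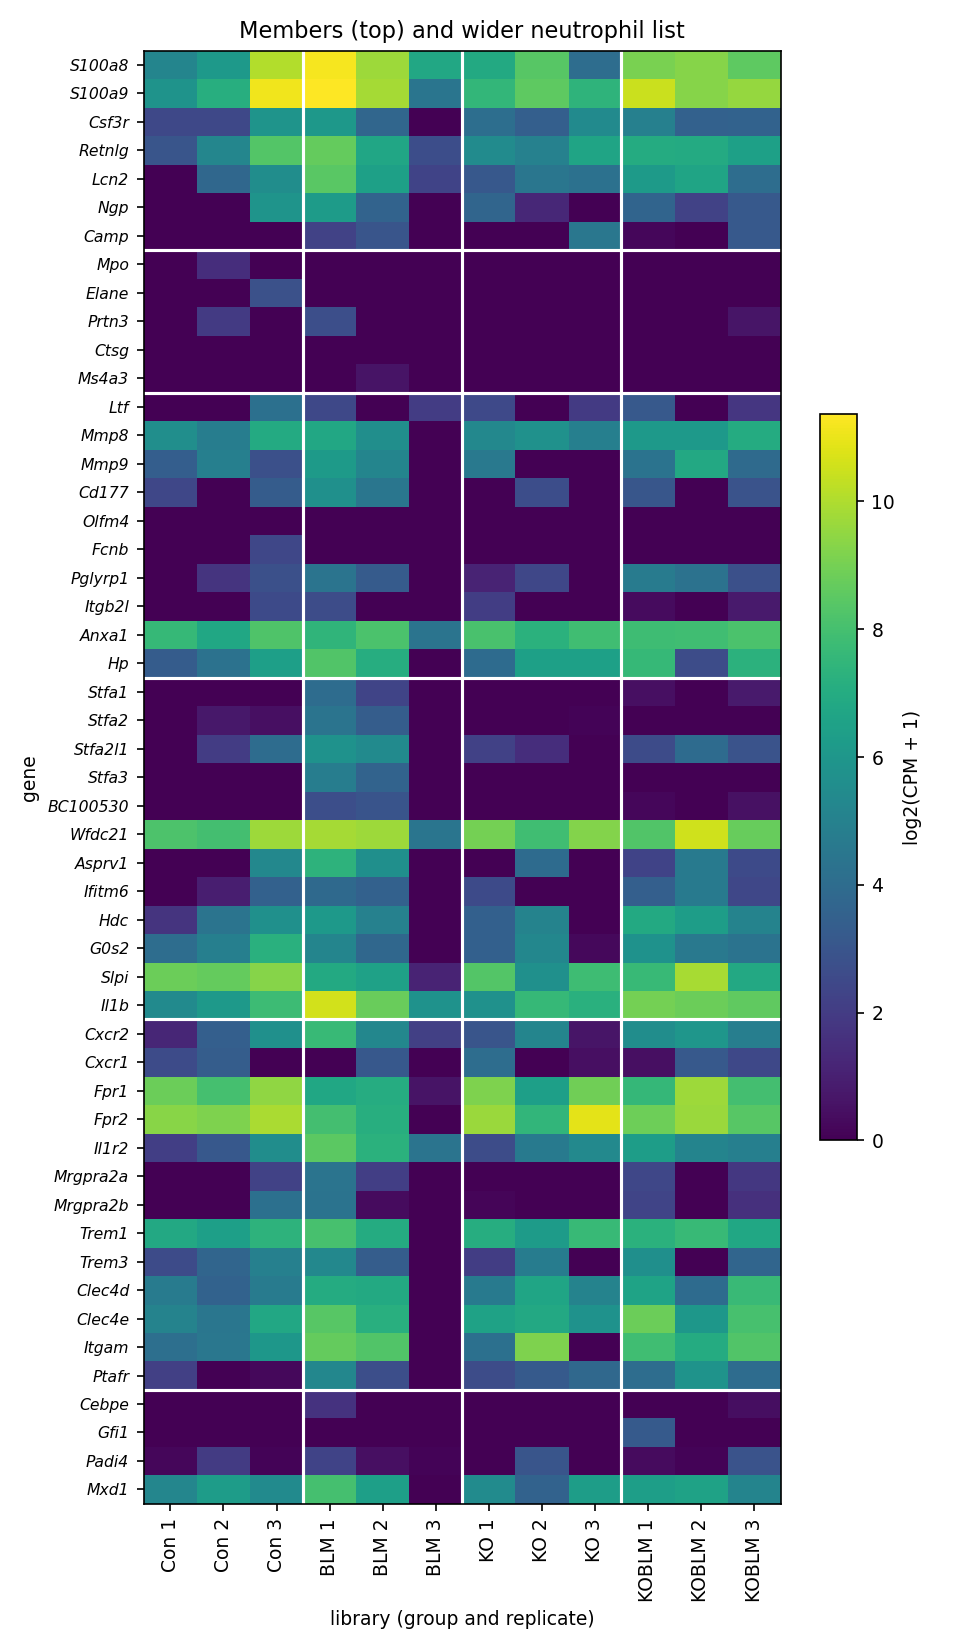
log2(CPM + 1) of the 7 members (top block) and of 44 genes of the wider neutrophil list in 5 blocks (primary granule, secondary and tertiary granule, cytosol and secreted, receptors and surface, transcription factors and enzymes) in the 12 libraries. The primary granule block is nearly empty, BLM 3 is dark in most genes, and Con 3 and BLM 1 are the brightest libraries for S100a9.

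Of 13 genes for ligands, receptors and chemoattractants that act with the members, 10 passed the filter. Csf3, the ligand of Csf3r, had 1 count in all 12 libraries together, and Il17a had none. Cxcl2, a chemokine that recruits neutrophils through Cxcr2, was counted at 923, 549 and 674 CPM in Con and at 11695, 5417 and 46.1 CPM in BLM, higher by 3.12 on the log2 scale (SE 1.28, adjusted p = 0.995 in edgeR). Cxcl15, the lung chemokine made by alveolar epithelium, was lower in BLM by a log2 fold change of -4.22 (SE 1.78, adjusted p = 0.995 in edgeR), with 93.0, 183 and 81.8 CPM in Con and 3.28, 2.24 and 16.0 CPM in BLM. Cxcl2 and Cxcl15 were the 2 calls among the 10 tested genes in BLM against Con, beside 4.27% of all genes. Over both genotypes the same 2 genes were called, at 1.92 and -3.12, beside 4.47%. Ager, a receptor for calprotectin that is also an alveolar type I marker, was lower in KO than in Con by a log2 fold change of -2.79 (SE 1.07, adjusted p = 1.0 in edgeR). It was the 1 call among the 10 tested genes there, beside 1.44% of all genes. Tlr4, the other calprotectin receptor, and Slc22a17 and Cap1, receptors for Lcn2 and resistin, were not called in any comparison.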

How the data were processed

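RNA of sorted ATII cells was sequenced from 12 mice (4 groups of 3) with the QuantSeq 3′ kit as single-end reads of 75 nt, so that counts do not grow with transcript length. The authors deposited raw read counts per gene symbol without normalization. The submitters' processing notes name Bowtie2, edgeR and mm10, and trimming, counting and annotation are not given in the sources used here. Repeated entries of 35 symbols were added up to give 23238 symbols. The 7 members, the gene lists, motifs and tests were chosen with earlier results of these data known.

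Groups came from the sample labels. Counts were filtered with filterByExpr (minimum count 10, minimum total 15; 13054 genes), scaled by TMM (factors 0.84 to 1.26) and fitted in edgeR 4.0.16 as 1 quasi-likelihood model of 4 groups with 8 residual degrees of freedom. Tests were two-sided. Called means over 1.5-fold between groups and p under 0.05 before adjustment, the study's threshold. The Benjamini-Hochberg adjusted p of edgeR ran over all 13054 genes and passed 0.05 for 0 genes in each comparison. Adjusted results of DESeq2 are given in the text for the members only. CPM of the members were compared by 35 exact permutation tests, unadjusted. DESeq2 1.42.0, other scalings, no filter, a replicate block, fits of only the groups compared and the omission of each library were alternatives. Named genes are all members, Ep300, any gene of the 2 lists that was called, the 5 with the highest mean of a list and fixed defining genes. The 3 genes outside the members most alike to each member are named too (mean of at least 5 CPM, over 3 counts in at least 4 libraries). The values of 1 gene of the wider list are not reported here. The edgeR steps were tested on simulated data. Software was R 4.3.3, Python 3.11.15, scipy 1.17.1, pandas 2.3.3 and matplotlib 3.10.9. Promoters came from RefSeq (GRCm38.p6) and positions from GENCODE M21. Libraries are from separate mice, and totals of 7005005 to 11153154 counts limit precision as the floor shows.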

Additional observations from a re-analysis of the deposited data

How the results depend on the processing

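Calls rested on few libraries. Without BLM 1, 3 of the 7 members were positive in BLM against Con and 6 in KOBLM against BLM, beside 7 and 0 with all libraries. Without Con 3, 7 were positive in KO against Con, beside 2 with all libraries, and all 7 stayed positive in BLM against Con. BLM 3 is the library that stands apart, and at 3 mice per group 1 library moves a mean. Counts of called members were 0 in BLM against Con, against 2 by DESeq2, 1 without the filter on low counts and 1 with the replicate block, and 0 to 5 with 1 library left out. They were 0 in KO against Con (1 by DESeq2), 0 in KOBLM against KO (1 without the filter, 1 with only the groups compared) and 0 in the interaction (1 by DESeq2, 0 to 1 with 1 library left out). For bleomycin over both genotypes the count was 1, against 2 by DESeq2, 3 without the filter, 0 with the replicate block, 0 at an adjusted p, and 0 to 5 with 1 library left out. The calls of Camp by DESeq2 rest on Con at 0 counts and, where KO enters, on KO 3 as the only KO library with counts. Over all genes, DESeq2 called 7.25% in BLM against Con, 5.78% in KOBLM against BLM and 2.87% in KO against Con. It called 6.43% for bleomycin over both genotypes and 4.79% in the interaction. Without the filter edgeR called 4.41% of all genes in BLM against Con, 1.47% in KOBLM against KO and 5.26% over both genotypes. With the replicate block it called 3.02% in BLM against Con and 2.76% over both genotypes, and with only the groups compared 1.25% in KOBLM against KO. The highest member counts with 1 library left out came without Con 3, beside 2.53% in BLM against Con, 4.11% over both genotypes and 2.84% in the interaction.

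Counts of the wider list were 3 in BLM against Con (5 by DESeq2, 7 without the filter, 1 with only the groups compared, 0 at an adjusted p, 1 to 14 with 1 library left out) and 1 in KOBLM against BLM (2, 5, 0, 0 and 0 to 6 in the same order, and 0 with the replicate block). They were 0 in KO against Con and in KOBLM against KO (1 in each without the filter, 1 in each with only the groups compared, 0 to 1 and 0 to 2 with 1 library left out). For bleomycin over both genotypes the count was 2 (6 without the filter, 1 with the replicate block, 0 at an adjusted p, 1 to 13 with 1 library left out), and in the interaction 1 (2 without the filter, 0 at an adjusted p, 0 to 2 with 1 library left out). The list held 32 tested genes with all libraries, up to 37 with 1 left out and 43 without the filter. Shares of all genes not given above were 3.69% in KOBLM against BLM, 1.31% in KO against Con and 4.04% in the interaction without the filter. With only the groups compared they were 3.28% in BLM against Con, 1.3% in KOBLM against BLM and 2.04% in KO against Con. With the block 2.01% were called in KOBLM against BLM.

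Of 278 values of members under other settings, 260 kept their direction and call and 5 reversed, namely Csf3r for bleomycin over both genotypes (-0.01 without Rn45s, -0.08 by library size, -0.01 without the filter) and S100a8 in the interaction (0.19 by library size, 0.45 with the replicate block). Differences in CPM turned to 0.958 for Csf3r and 0.125 for Camp on TMM-scaled CPM, for bleomycin over both genotypes. With 1 library left out, 49 of 335 values reversed, and their causes were not tested beyond the omission itself. In BLM against Con, reversing log2 fold changes ranged over S100a9 -0.53 to 3.67, Csf3r -1.61 to 2.62, Retnlg -0.93 to 3.06 and Ngp -1.5 to 11.04. In KOBLM against BLM, reversing log2 fold changes ranged over S100a8 -1.66 to 0.06, S100a9 -0.94 to 0.89, Csf3r -1.26 to 1.37, Retnlg -1.2 to 0.95, Lcn2 -1.85 to 0.35, Ngp -2.42 to 0.39 and Camp -5.58 to 0.65. In KO against Con, reversing log2 fold changes ranged over S100a8 -2.4 to 1.8, S100a9 -2.1 to 1.44, Csf3r -0.55 to 2.32, Retnlg -1.57 to 1.4, Lcn2 -0.79 to 1.31 and Ngp -4.44 to 8.39. In KOBLM against KO, reversing log2 fold changes ranged over Csf3r -1.01 to 0.32 and Camp -6.34 to 7.72. For bleomycin against PBS over both genotypes, reversing log2 fold changes ranged over Csf3r -0.95 to 1.16 and Ngp -0.34 to 5.93. In the interaction, reversing log2 fold changes ranged over S100a8 -2.91 to 1.31, S100a9 -1.81 to 2.4, Csf3r -2.92 to 1.3, Retnlg -2.03 to 1.96, Lcn2 -2.58 to 0.55 and Ngp -10.23 to 2.61. Camp in KO against Con gave no value without KO 3, since both groups were then at 0. Replicate numbers did not pair the libraries, since deviations from group means correlated at -0.14 to 0.09 for equal numbers and -0.11 to 0.14 for others, and the block moved the calls as given above.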

Other observations

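The neutrophil genes of KO 3 were at unlike levels, and the genes named here were chosen after their values were seen. Csf3r (41.8 CPM), Retnlg (98.6 CPM) and Camp (21.8 CPM) were the highest of the KO group there, whereas S100a8 (15.8 CPM) was the lowest of all 12 libraries and Ngp was at 0. Of the 45 genes of the wider list in the files, 17 were over the floor in KO 3, against 8 in BLM 3 and 23 to 37 in the other 10 libraries. Hdc and Itgam were at 0 in KO 3 and BLM 3 and counted in the other 10 libraries, whereas Wfdc21 (616 CPM), Slpi (231 CPM), Trem1 (203 CPM) and Il1b (148 CPM) were well over the floor in KO 3, and Fpr2 (1919 CPM) and Chil3 (30547 CPM), both transcribed in alveolar macrophages, were at their highest. The genes closest to Camp across libraries were highest in KO 3 as well, with Stard10 at 46.9 CPM, Slc2a6 at 77.2 CPM and Spink2 at 43.3 CPM. Stfa3, a stefin of mouse neutrophils, was counted in BLM 1 (27.6 CPM) and BLM 2 (11.1 CPM) and was at 0 in the other 10 libraries.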
